A study of Mus musculus with 12 samples.

Results

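The burning of fatty acids and ketone bodies was followed through 33 genes in mouse hearts. The genes come from a list of enzymes, carriers and regulators of fatty acid oxidation and ketone use, and each was found by its symbol in the deposited expression table of 26781 genes. All 33 reached the level needed for testing. Background knowledge places these genes in one route: long-chain fatty acids are activated to acyl-CoA at the cell's membranes, carried into mitochondria as carnitine esters, and shortened in repeated cycles of dehydrogenation, hydration, a further dehydrogenation and thiolysis, each turn giving acetyl-CoA. Ketone bodies, made in the liver, enter the same acetyl-CoA pool through a short path of their own. The adult heart draws most of its energy from this route, and failing hearts are known to use fatty acids less and ketones more.

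Heart RNA of C57BL/6J mice, an inbred laboratory strain, was sequenced in 4 groups of 3 libraries, labelled MI+CIH, CIH, MI and sham. MI is read here as myocardial infarction and CIH as chronic intermittent hypoxia, the repeated drops in oxygen that model sleep apnoea. MI+CIH hearts had both, CIH hearts the hypoxia without infarction, MI hearts the infarction without hypoxia and sham hearts neither, and the labels give no time after surgery, length of hypoxia, sex or age, nor whether CIH mice had a sham operation. RNA came from frozen hearts extracted with Trizol, the labels name no part of the heart, and the p-values below measure the spread between libraries, since the labels do not say that each library is a separate animal.

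Levels are given in FPKM, reads scaled to the exon length of the gene and the depth of the library. That length takes all annotated exons of a gene together, for example 8730 bases for Hadha and 2005 for Acadl. The order of levels between genes therefore depends on the annotation as well as on the amount of RNA. Changes are differences of log2(FPKM + 0.5), tested with limma over 15503 genes, with Benjamini-Hochberg adjusted p under 0.05 called a rise or a fall. Library totals recovered from the table were 26.06 to 33.42 M reads, and a single read on 1 kb of exon is worth at most 0.03837 FPKM. Heart muscle was present in every library, with none of 14 cardiomyocyte marker genes at 0. MI+CIH libraries stood apart in other cell markers: the summed level of 8 airway and lung markers was 333 to 3421 FPKM in MI+CIH, 0.729 to 14.4 in CIH, 0.502 to 2.47 in MI and 1.97 to 542 in sham, where the high value was sham 2. None of the 8 was at 0 in MI+CIH or sham 2, and 3 or 4 were at 0 in every other library.

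In sham hearts the members spanned a wide range of FPKM levels, whose order depends in part on annotated exon length. The long-chain acyl-CoA dehydrogenase gene Acadl was highest at 399 ± 24.5 FPKM (SD, n = 3), followed by the medium-chain gene Acadm at 241 ± 20.2 and the very-long-chain gene Acadvl at 223 ± 22.9. The ranges of Acadm and Acadvl overlapped. At the other end stood Acsl3, an acyl-CoA synthetase, at 1.46 ± 0.362 FPKM, and Cpt1b, the muscle form of the carnitine transferase that admits fatty acids to mitochondria, at 0.932 ± 0.276 FPKM. Of the exon length of Cpt1b 81.4% is shared on the same strand with the annotated gene Gm44502, and of that of Etfb, an electron carrier subunit, 58.2% is shared with Gm45233. Gm44502 and Gm45233 were not analysed here, and the levels of Cpt1b and Etfb are uncertain.

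**Figure D1:**
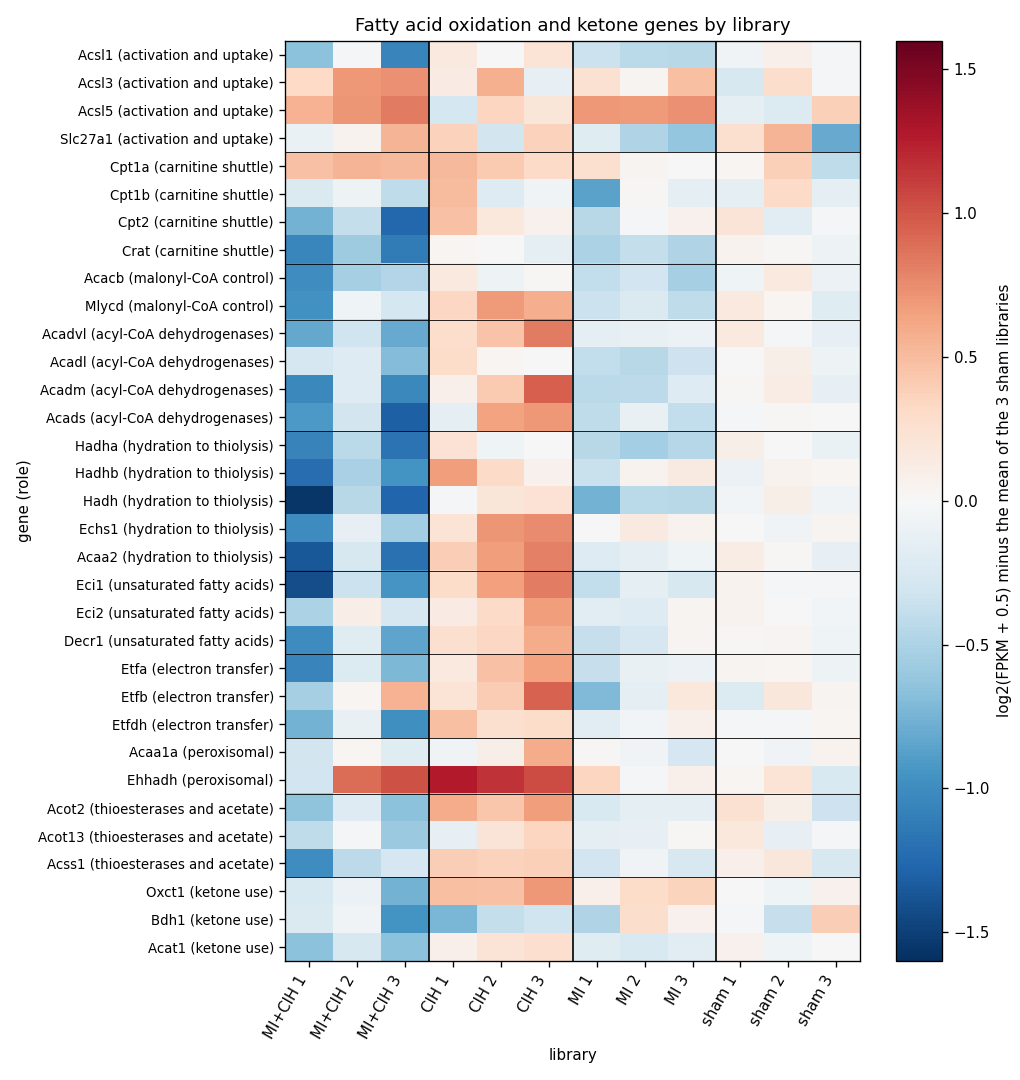
Level of each of the 33 genes (rows, by role) in each of the 12 libraries (columns), as log2(FPKM + 0.5) minus the mean of the 3 sham libraries; red is above and blue below the sham mean. Most rows are blue in MI+CIH 1 and MI+CIH 3 and red in the 3 CIH libraries, while Acsl5 is red in all MI+CIH and all MI libraries.

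The clearest contrast was between MI+CIH and CIH hearts, which asks what infarction did under hypoxia. Of the 33 genes 23 fell and 1 rose in MI+CIH, where 8.26% of all tested genes fell and 19.9% rose. The median change of the 33 was -0.91 on the log2 scale, against 0.20 for all tested genes, and 28 lay below 0. In 24 of the 33 all 3 MI+CIH libraries were below all 3 CIH libraries, a pattern held by 10.3% of all tested genes, and in 1 they were all above (27.3% of all tested genes). Falls took in 4 of 4 acyl-CoA dehydrogenases, 5 of 5 genes from hydration to thiolysis, 3 of 3 genes for unsaturated fatty acids and both genes of malonyl-CoA control. They also took in 2 of 3 genes of electron transfer, of thioesterases and acetate, and of ketone use, where Etfb, Acot13 and Bdh1 did not pass. The entry steps were mixed, with 2 of 4 genes of the carnitine shuttle falling and, among 4 genes of activation and uptake, 1 falling and 1 rising. Neither of the 2 peroxisomal genes passed. After median-of-ratios scaling of the libraries, which shifted the median change of all tested genes by -0.17, the count was 26 that fell and 0 that rose, where 14.5% of all tested genes fell and 12.7% rose.

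Heart muscle genes moved the same way in this contrast. Of the 14 cardiomyocyte markers 9 fell and 1 rose in MI+CIH against CIH, with a median change of -0.89, and the geometric mean of the markers was 544 to 957 FPKM in MI+CIH, 1087 to 1221 in CIH, 1049 to 1094 in MI and 1091 to 1165 in sham. In bulk heart RNA fewer heart muscle cells and less RNA per cell cannot be told apart. The geometric mean of the 33 genes was 22.3 to 33.4 FPKM in MI+CIH, 42.4 to 47.6 in CIH, 29.3 to 33.2 in MI and 33.7 to 37.2 in sham. Divided by the marker mean it was 0.0291 to 0.0456 in MI+CIH, 0.0363 to 0.0392 in CIH, 0.028 to 0.0303 in MI and 0.0307 to 0.0341 in sham. On this ratio the MI+CIH libraries overlapped each of the other groups, and MI+CIH 3, with the lowest marker mean, had the highest ratio. Nppa, a natriuretic peptide gene among the 14 markers, rose against CIH (2.84, limma adjusted p = 0.0043). With Nppa left out the ratio was 0.033 to 0.0539 in MI+CIH, 0.0348 to 0.037 in CIH, 0.0302 to 0.0323 in MI and 0.0308 to 0.0352 in sham. All MI+CIH libraries were then above all MI libraries and overlapped CIH and sham.

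**Figure D2:**
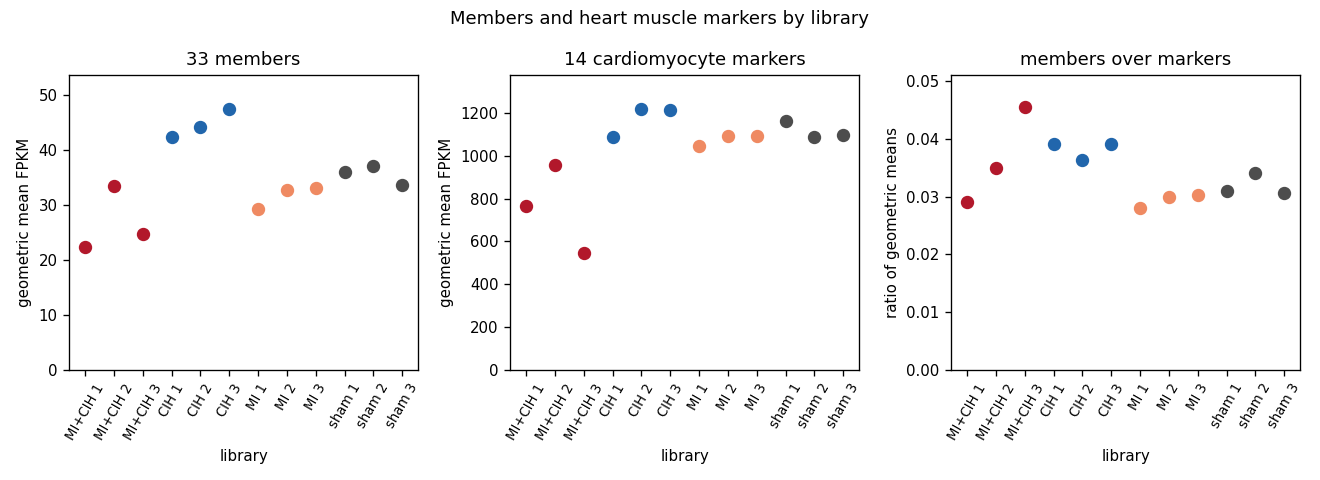
Geometric mean FPKM of the 33 genes (left), of 14 cardiomyocyte markers (middle) and the ratio of the means (right) in each library, 1 point per library. The 33 genes lie at 22.3 to 33.4 in MI+CIH and 42.4 to 47.6 in CIH, the markers at 544 to 957 in MI+CIH and 1087 to 1221 in CIH, and the ratios of MI+CIH (0.0291 to 0.0456) and CIH (0.0363 to 0.0392) overlap.

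Genes of other cells also differed between MI+CIH and CIH. Fibroblast markers rose in 7 of 8 cases and macrophage markers in 7 of 7, where 19.9% of all tested genes rose and 8.26% fell. After median-of-ratios scaling 7 fibroblast and 4 macrophage markers rose, where 12.7% of all tested genes rose. The summed fibroblast level was 782 to 1684 FPKM in MI+CIH, 181 to 339 in CIH, 513 to 862 in MI and 211 to 259 in sham. Macrophage markers summed to 310 to 574 FPKM in MI+CIH, 102 to 242 in CIH, 203 to 277 in MI and 129 to 183 in sham. White and brown fat cell markers rose in 5 of 9 tested cases (693 to 1308 FPKM in MI+CIH, 219 to 284 in CIH, 385 to 777 in MI, 156 to 459 in sham), and airway and lung markers in 5 of 6. Of 7 atrial markers 2 rose, and of 10 skeletal muscle markers 2 rose and 1 fell. The share of skeletal muscle markers that rose was near that of all tested genes. The summed atrial level was 4359 to 5367 FPKM in MI+CIH, 365 to 2289 in CIH, 2514 to 4368 in MI and 1770 to 2907 in sham. Most of it was Nppa, at 4004, 2995 and 4787 FPKM in MI+CIH and 2038, 1666 and 1136 in sham. Myl7, the next highest, was at 416, 1035 and 357 FPKM in MI+CIH and 626, 543 and 470 in sham. It was at 84.5, 552 and 156 FPKM in CIH and 1073, 218 and 119 in MI. Against sham the 7 atrial markers had a median change of -0.02 in MI+CIH, with 3 above 0 and 4 below. The skeletal muscle level was 389 to 1074 FPKM in MI+CIH, 419 to 634 in CIH, 519 to 1148 in MI and 432 to 634 in sham. Acta1 and Ckm made up most of that skeletal muscle level, with means of 187 and 312 FPKM in sham. The next highest in MI+CIH, Tnnt3, was at 7.54, 27.2 and 21.1 FPKM there and 0.427, 0.208 and 0.495 in CIH. It was at 1.4, 44.6 and 1.94 FPKM in MI and 0.856, 1.41 and 0.895 in sham. Myh4 and Pvalb were also high in MI 2, at 30.2 and 36.5 FPKM. Against CIH 9 of the 10 markers changed upward and 1 downward (median 2.33). Of 7 endothelial markers 1 fell, with sums of 280 to 386 FPKM in MI+CIH, 267 to 388 in CIH, 277 to 338 in MI and 252 to 330 in sham. Of 7 erythroid markers 1 fell, with sums of 52.1 to 242 FPKM in MI+CIH, 106 to 344 in CIH, 138 to 163 in MI and 304 to 747 in sham. Of the 11 fat cell markers 0 to 2 were at 0 in a library and of the skeletal muscle markers 0 in MI+CIH and MI and 1 or 2 in CIH and sham, while no fibroblast, macrophage, atrial, endothelial or erythroid marker was at 0. The part of these cell markers in the changes of the 33 genes was not tested.

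Activation of fatty acids was the step where members parted. Acsl1, the main long-chain acyl-CoA synthetase of heart muscle, stood at 57.4, 88.4 and 43.2 FPKM in MI+CIH, 101, 90.7 and 105 in CIH, 71.0, 66.9 and 66.2 in MI, and 86.6, 95.6 and 89.1 in sham libraries. It fell against CIH (-0.70, limma adjusted p = 0.0300), with MI+CIH 2 just under the lowest CIH library. The fall of Acsl1 did not pass without MI+CIH 1 (-0.67, 0.0727), MI+CIH 3 (-0.46, 0.0972), CIH 1 (-0.69, 0.0579) or CIH 3 (-0.66, 0.0862). Acsl5 (ENSMUSG00000024981, chromosome 19, 55251938 to 55297720 in GENCODE M21 on GRCm38, as for all positions here), a synthetase best known from intestine and liver, stood at 9.79, 10.9 and 11.9 FPKM in MI+CIH, 5.27, 8.37 and 7.49 in CIH, 10.8, 10.7 and 11.1 in MI, and 5.75, 5.51 and 8.57 in sham libraries. All 6 libraries with infarction were above all 6 without it. Acsl5 rose in MI+CIH against sham (0.70, limma adjusted p = 0.0268) and against CIH (0.61, 0.0306), and in MI against sham the change was 0.70 (0.0839). Against CIH Acsl5 did not pass after median-of-ratios scaling (0.41, 0.0822) or without MI+CIH 2 (0.61, 0.0566), MI+CIH 3 (0.54, 0.0963), CIH 1 (0.43, 0.0905) or CIH 3 (0.66, 0.0535). Acsl3 lay at 1.93 to 2.71 FPKM in MI+CIH, 1.27 to 2.38 in CIH, 1.5 to 2.22 in MI and 1.13 to 1.85 in sham. Slc27a1, a fatty acid transport protein, lay at 21.8 to 34.4 FPKM in MI+CIH, 19.1 to 30.6 in CIH, 15.1 to 20.5 in MI and 13.2 to 34.6 in sham. Neither Acsl3 nor Slc27a1 passed in any comparison.

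In the carnitine shuttle Cpt2 and Crat fell against CIH and the outer transferases Cpt1a and Cpt1b did not pass. Cpt1a, the liver form of the outer carnitine transferase, lay at 30.5 to 32.2 FPKM in MI+CIH, 27.2 to 31.7 in CIH, 22.0 to 26.4 in MI and 16.4 to 28.9 in sham. Its change was 0.09 against CIH (95% interval -0.29 to 0.48), 0.41 against MI (limma adjusted p = 0.244) and 0.51 against sham (0.0721), and all MI+CIH libraries were above all MI and all sham libraries. Cpt1b stood at 0.705, 0.836 and 0.572 FPKM in MI+CIH, 1.51, 0.728 and 0.859 in CIH, 0.279, 0.932 and 0.771 in MI, and 0.774, 1.25 and 0.772 in sham, with all 4 groups overlapping. Its lowest library held 29 recovered reads, and its change against CIH was -0.32 (95% interval -0.91 to 0.27). Cpt2, which turns the carnitine ester back into acyl-CoA inside the mitochondrion, stood at 19.8, 25.8 and 13.8 FPKM in MI+CIH, 46.7, 38.0 and 35.3 in CIH, 24.6, 32.9 and 35.3 in MI, and 39.1, 29.6 and 33.2 in sham. All MI+CIH libraries lay below all CIH and all sham libraries, and Cpt2 fell against CIH (-1.03, limma adjusted p = 0.00759) and against sham (-0.80, 0.0328).

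Crat (ENSMUSG00000026853, chromosome 2, 30400471 to 30415813), which moves acetyl groups between CoA and carnitine, stood at 31.1, 43.1 and 29.5 FPKM in MI+CIH, 65.8, 64.2 and 57.9 in CIH, 45.2, 49.4 and 45.9 in MI, and 67.0, 65.5 and 61.0 in sham. The groups formed steps, with all MI+CIH libraries below all MI libraries and all MI libraries below all CIH and sham libraries. Crat fell by 0.87 against CIH (SE 0.15, limma adjusted p = 0.00307) and by 0.91 against sham (SE 0.15, 0.00493). It had the smallest p of the 33 genes in MI+CIH against sham and was the only one of the 15 called there that passed under each of the 21 alternative settings tried. In MI against sham its change was -0.46 (limma adjusted p = 0.155).

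Malonyl-CoA, the brake on the outer carnitine transferase, is made at the mitochondrion by the enzyme of Acacb and removed by that of Mlycd. Both genes fell. Acacb stood at 33.9, 46.7 and 48.8 FPKM in MI+CIH, 75.9, 64.3 and 68.5 in CIH, 51.5, 54.6 and 46.8 in MI, and 64.8, 75.5 and 63.6 in sham. Its values overlapped between MI+CIH and MI and lay below all CIH and sham libraries, and it fell against CIH (-0.70, limma adjusted p = 0.00931) and sham (-0.66, 0.0185). Mlycd stood at 11.3, 21.4 and 18.4 FPKM in MI+CIH, 28.6, 36.4 and 34.1 in CIH, 17.7, 19.2 and 16.9 in MI, and 25.2, 23.1 and 19.7 in sham. It fell against CIH (-0.98, limma adjusted p = 0.00664) but overlapped with sham (-0.44, 0.160), and all CIH libraries were above all sham libraries.

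The acyl-CoA dehydrogenases open each turn of the spiral, each enzyme taking its own range of chain lengths. Acadvl (ENSMUSG00000018574, chromosome 11, 70010183 to 70015411) stood at 126, 178 and 127 FPKM in MI+CIH, 269, 306 and 395 in CIH, 200, 204 and 208 in MI, and 248, 219 and 202 in sham. The MI+CIH libraries were below all 9 others and the CIH libraries above all 9 others, with a change of -1.17 against CIH (SE 0.19, 95% interval -1.59 to -0.76, limma adjusted p = 0.00252) and -0.65 against sham (0.0378). Of the exon length of Acadvl 42.9% lies opposite exons of Dvl2, and the sources used here do not say whether reads were counted by strand. Acadl stood at 332, 346 and 246 FPKM in MI+CIH, 490, 409 and 399 in CIH, 304, 294 and 317 in MI, and 397, 425 and 376 in sham. Its fall against CIH was small (-0.50, limma adjusted p = 0.0488) and did not pass under 15 of the 21 alternatives, among them the loss of any 1 library other than MI+CIH 2 (without MI+CIH 3, -0.35 and 0.149; without CIH 1, -0.41 and 0.115).

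Acadm, the gene mutated in the commonest inherited disorder of fatty acid oxidation in people, stood at 117, 209 and 117 FPKM in MI+CIH, 254, 321 and 469 in CIH, 178, 180 and 208 in MI, and 243, 260 and 220 in sham. MI+CIH 2 was level with the highest MI library, and the other MI+CIH libraries were below all libraries of the other groups. Acadm fell against CIH (-1.24, SE 0.26, limma adjusted p = 0.00664), and its change against sham was -0.76 (0.0685). Acads, for short chains, stood at 25.3, 39.0 and 19.1 FPKM in MI+CIH, 43.5, 75.3 and 78.0 in CIH, 36.1, 44.1 and 36.5 in MI, and 47.6, 48.6 and 48.1 in sham. It fell against CIH (-1.24, limma adjusted p = 0.00679) and against sham (-0.84, 0.0484), with MI+CIH 2 inside the MI range and under all CIH and sham libraries.

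The remaining turn of the spiral is carried out by the trifunctional protein, whose subunits Hadha and Hadhb lie head to head on chromosome 5, and by the matrix enzymes of Hadh, Echs1 and Acaa2. Hadha stood at 78.1, 121 and 72.1 FPKM in MI+CIH, 192, 156 and 165 in CIH, 120, 112 and 119 in MI, and 175, 165 and 152 in sham. Hadhb stood at 19.0, 31.3 and 22.9 FPKM in MI+CIH, 71.7, 55.9 and 47.3 in CIH, 35.1, 47.0 and 49.8 in MI, and 42.3, 46.7 and 46.2 in sham. The partners differed outside the doubly treated group: all MI libraries were below all sham libraries for Hadha but not for Hadhb, and all CIH libraries were above all sham libraries for Hadhb but not for Hadha. Hadha fell against CIH (-0.95, limma adjusted p = 0.00535) and sham (-0.89, 0.0115), and Hadhb against CIH (-1.25, 0.00275) and sham (-0.90, 0.0168). Hadhb had the smallest p of the 33 genes in MI+CIH against MI, with a change of -0.85 (SE 0.21, limma adjusted p = 0.0733).

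Hadh, the short-chain hydroxyacyl-CoA dehydrogenase, stood at 21.9, 47.9 and 26.8 FPKM in MI+CIH, 64.1, 74.9 and 76.7 in CIH, 38.6, 48.3 and 47.9 in MI, and 63.1, 70.0 and 63.0 in sham. It fell against CIH (-1.22, limma adjusted p = 0.00481) and sham (-1.09, 0.0125), and no other member changed as much against sham. All its MI+CIH libraries lay below all CIH and sham libraries. Echs1, the short-chain enoyl-CoA hydratase, stood at 5.83, 11.2 and 8.19 FPKM in MI+CIH, 14.3, 20.4 and 21.1 in CIH, 12.2, 13.6 and 12.8 in MI, and 12.3, 11.8 and 12.7 in sham. MI and sham overlapped, CIH lay above both and MI+CIH below all. Echs1 fell against CIH (-1.12, limma adjusted p = 0.00368), and its change against sham was -0.56 (0.0820).

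Acaa2, a thiolase that releases acetyl-CoA, had the greatest fall of the 33 genes against CIH. It stood at 67.8, 146 and 75.7 FPKM in MI+CIH, 229, 278 and 306 in CIH, 151, 156 and 166 in MI, and 189, 177 and 159 in sham. The MI+CIH libraries were the 3 lowest and the CIH libraries the 3 highest of the 12, with MI+CIH 2 close to MI 1. Acaa2 fell by 1.56 against CIH (SE 0.25, 95% interval -2.11 to -1.02, limma adjusted p = 0.00246) and by 0.94 against sham (SE 0.25, 0.0270), and its change against MI was -0.79 (0.129).

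**Figure D3:**
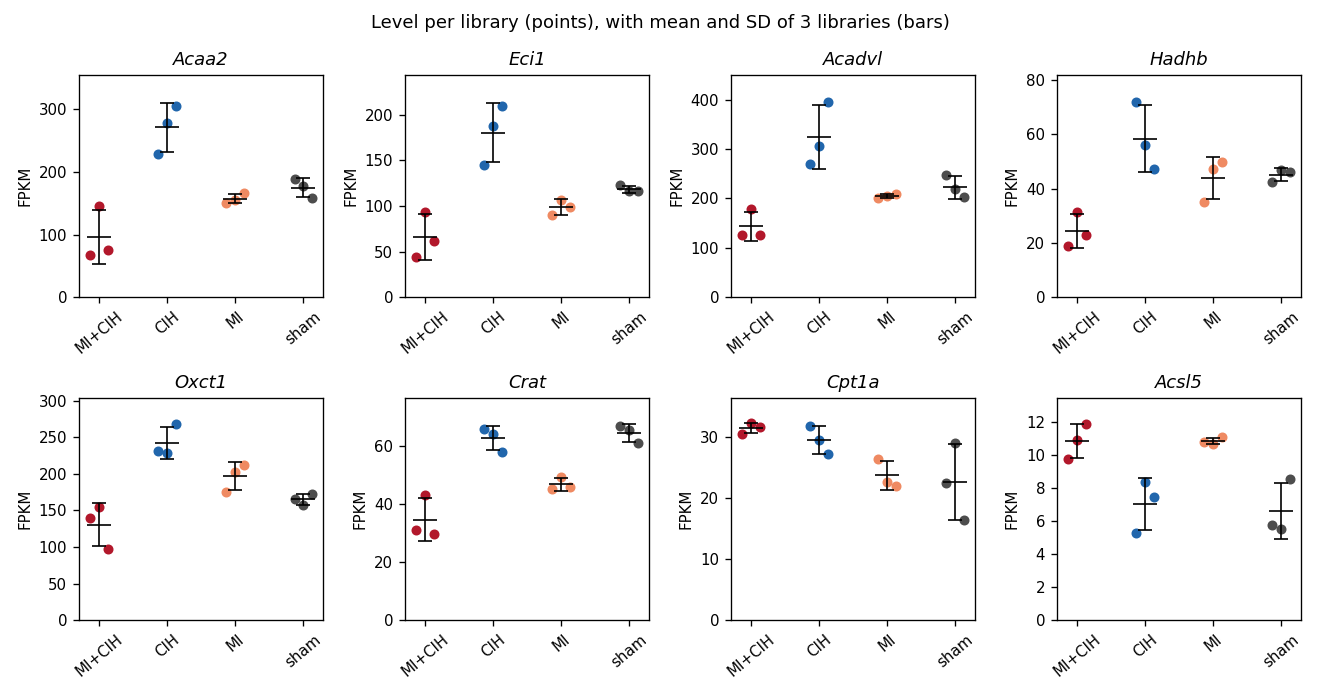
FPKM of 8 of the genes in each library (points), with the mean and SD of 3 libraries per group (bars), groups from left to right MI+CIH, CIH, MI and sham. Acaa2, Acadvl, Hadhb and Oxct1 have their MI+CIH libraries below and their CIH libraries above or level with the rest, Crat is stepped down in MI and further in MI+CIH, and Acsl5 is higher in the 6 libraries with infarction.

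Unsaturated fatty acids need added isomerases and a reductase before the spiral can take them. Eci1 (ENSMUSG00000024132, chromosome 17, 24426641 to 24439348), the main enoyl-CoA isomerase of mitochondria, stood at 44.1, 93.3 and 61.3 FPKM in MI+CIH, 145, 187 and 209 in CIH, 89.7, 107 and 98.8 in MI, and 123, 116 and 116 in sham. All MI+CIH libraries were below all sham libraries and all CIH libraries above them, and Eci1 fell by 1.49 against CIH (SE 0.24, limma adjusted p = 0.00246) and by 0.90 against sham (0.0264). Decr1, the dienoyl-CoA reductase, stood at 29.7, 52.4 and 33.4 FPKM in MI+CIH, 71.6, 75.6 and 91.0 in CIH, 46.6, 49.8 and 61.8 in MI, and 60.9, 62.1 and 57.4 in sham. Decr1 fell against CIH (-1.07, limma adjusted p = 0.00433) and sham (-0.68, 0.0412). Eci2, a second isomerase also found in peroxisomes, stood at 13.8, 21.3 and 16.3 FPKM in MI+CIH, 21.6, 24.5 and 31.7 in CIH, 17.4, 17.0 and 20.4 in MI, and 20.5, 19.7 and 19.1 in sham. Its fall against CIH was smaller (-0.59, limma adjusted p = 0.0288), and MI+CIH 2 was above all sham libraries. The fall of Eci2 did not pass without MI+CIH 1 (-0.45, 0.0936), MI+CIH 3 (-0.56, 0.0776), CIH 2 (-0.62, 0.0513) or CIH 3 (-0.44, 0.105).

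Electrons from the dehydrogenases pass to the electron transfer flavoprotein, a pair of subunits from Etfa and Etfb, and from it through the oxidoreductase of Etfdh to the respiratory chain. Etfa stood at 40.1, 72.2 and 50.9 FPKM in MI+CIH, 93.8, 117 and 132 in CIH, 65.3, 77.4 and 78.8 in MI, and 86.9, 85.9 and 79.8 in sham. Etfdh stood at 24.4, 38.2 and 20.9 FPKM in MI+CIH, 58.2, 49.7 and 51.2 in CIH, 36.6, 40.3 and 44.1 in MI, and 41.0, 41.2 and 42.7 in sham. Both had all MI+CIH libraries below all sham and CIH libraries and all CIH libraries above sham. Etfa fell against CIH (-1.09, limma adjusted p = 0.00431) and sham (-0.67, 0.0476), and Etfdh likewise (-0.96, 0.00535, and -0.62, 0.0471). Etfb lay at 0.89 to 2.45 FPKM in MI+CIH, 1.83 to 3.34 in CIH, 0.725 to 1.75 in MI and 1.22 to 1.77 in sham, far under its partner Etfa and uncertain for the shared exons named above.

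Promoters of the members were searched for letters bound by known regulators of this route, as a description of the DNA beside genes that moved together. RefSeq promoter windows on build GRCm38.p6, from 250 bases before to 50 after the start, matched 27 of the 33 genes, 19 of them among the 23 that fell against CIH. The letters AAGGTCA, the half-site read by nuclear receptors such as the estrogen-related receptors, were found on either strand in 2 of the 27 (Acadm and Acacb), against 5.38% of 27025 genes with a window. The direct repeat of AGGTCA with 1 free base between the copies, the form read by PPAR with RXR, which contains AAGGTCA where the free base is A, was found in none of the 27, against 0.0481% of all genes. The palindrome of GCGCA and its reverse complement TGCGC, read by NRF1, a regulator of mitochondrial genes, was found in 1 of the 27 (Etfdh), against 1.07%. CCAAT, the box read by NF-Y, was in 15 of the 27, against 41.1%. The windows of Acadm and Etfdh are shown up to the base before the start because each holds a match in a gene that fell, with the match in capitals. For Acadm (chr3:153944644-153944893, minus strand) the capitals mark TGACCTT, the half-site read from the other strand, 249 to 243 bases before the start, and for Etfdh (chr3:79628768-79629017, minus strand) they mark the NRF1 palindrome, 128 to 119 bases before it.
Acadm: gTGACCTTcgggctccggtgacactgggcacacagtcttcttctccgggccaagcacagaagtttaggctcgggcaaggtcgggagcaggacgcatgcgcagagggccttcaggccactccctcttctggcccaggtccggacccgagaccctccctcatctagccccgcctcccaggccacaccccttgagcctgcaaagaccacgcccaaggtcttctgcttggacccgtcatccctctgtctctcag
Etfdh: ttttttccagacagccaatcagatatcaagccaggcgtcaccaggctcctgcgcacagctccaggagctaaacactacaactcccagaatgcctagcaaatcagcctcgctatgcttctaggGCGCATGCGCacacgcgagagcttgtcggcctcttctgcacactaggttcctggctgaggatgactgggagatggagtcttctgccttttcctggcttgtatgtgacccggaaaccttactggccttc

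Peroxisomes shorten very long chains with enzymes of their own, here Ehhadh, a bifunctional hydratase and dehydrogenase, and the thiolase Acaa1a. Ehhadh stood at 2.97, 7.45 and 8.19 FPKM in MI+CIH, 9.84, 9.09 and 8.31 in CIH, 4.93, 3.75 and 4.02 in MI, and 3.87, 4.5 and 3.11 in sham libraries. It had the greatest change of the 33 genes in CIH against sham, 1.16 with all CIH libraries above all sham libraries (SE 0.29, limma adjusted p = 0.230). In MI+CIH its change against CIH was -0.62 (0.126) and against sham 0.53 (0.220). MI+CIH 1 lay under all sham libraries and the other MI+CIH libraries above them. Acaa1a lay at 6.1 to 7.78 FPKM in MI+CIH, 7.26 to 11.7 in CIH, 6.22 to 7.69 in MI and 7.28 to 7.88 in sham and passed in no comparison.

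Thioesterases release fatty acids from CoA, and Acss1 makes acetyl-CoA from acetate in mitochondria. Acot2 (ENSMUSG00000021226, chromosome 12, 83987861 to 83993873), the mitochondrial thioesterase for long chains, stood at 11.8, 16.1 and 11.7 FPKM in MI+CIH, 28.4, 25.7 and 30.1 in CIH, 15.7, 16.8 and 16.7 in MI, and 22.3, 19.9 and 14.7 in sham. CIH stood above all other libraries, and Acot2 had the smallest p of the 33 genes in MI+CIH against CIH (-1.07, SE 0.17, limma adjusted p = 0.00231). Acss1 stood at 26.1, 39.1 and 43.7 FPKM in MI+CIH, 69.3, 68.0 and 68.7 in CIH, 42.5, 50.4 and 43.8 in MI, and 55.5, 59.4 and 44.0 in sham. Its CIH libraries lay close together (68.7 ± 0.617 FPKM, SD, n = 3) and above all others, and it fell against CIH (-0.94, limma adjusted p = 0.00550). Against sham the changes of Acot2 (-0.50, 0.0629) and Acss1 (-0.56, 0.0644) did not pass. Acot13, a further thioesterase, lay at 136 to 202 FPKM in MI+CIH, 189 to 261 in CIH, 186 to 209 in MI and 189 to 231 in sham, with a change of -0.49 against CIH (0.0699).

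Of the 3 genes of ketone use 2 fell against CIH. Oxct1 (ENSMUSG00000022186, chromosome 15, 4026383 to 4155344), the transferase that commits ketone bodies to oxidation, stood at 139, 155 and 97.6 FPKM in MI+CIH, 231, 228 and 268 in CIH, 175, 203 and 212 in MI, and 165, 157 and 173 in sham. Its MI+CIH libraries were below all 9 others, and both its MI and its CIH libraries were above all sham libraries. Oxct1 fell against CIH (-0.91, SE 0.18, limma adjusted p = 0.00532), with changes of -0.61 against MI (0.112) and -0.36 against sham (0.188). Acat1, the thiolase that splits acetoacetyl-CoA, stood at 74.7, 99.1 and 74.8 FPKM in MI+CIH, 125, 138 and 142 in CIH, 103, 99.4 and 104 in MI, and 124, 113 and 118 in sham. It fell against CIH (-0.71, limma adjusted p = 0.00560) and sham (-0.53, 0.0297). Bdh1, which turns hydroxybutyrate into acetoacetate, stood at 12.1, 13.7 and 7.15 FPKM in MI+CIH, 8.46, 10.9 and 11.4 in CIH, 10.1, 17.5 and 15.0 in MI, and 14.1, 11.0 and 18.9 in sham. All 4 groups overlapped, and its change against CIH was 0.06 (95% interval -0.54 to 0.65).

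**Figure D4:**
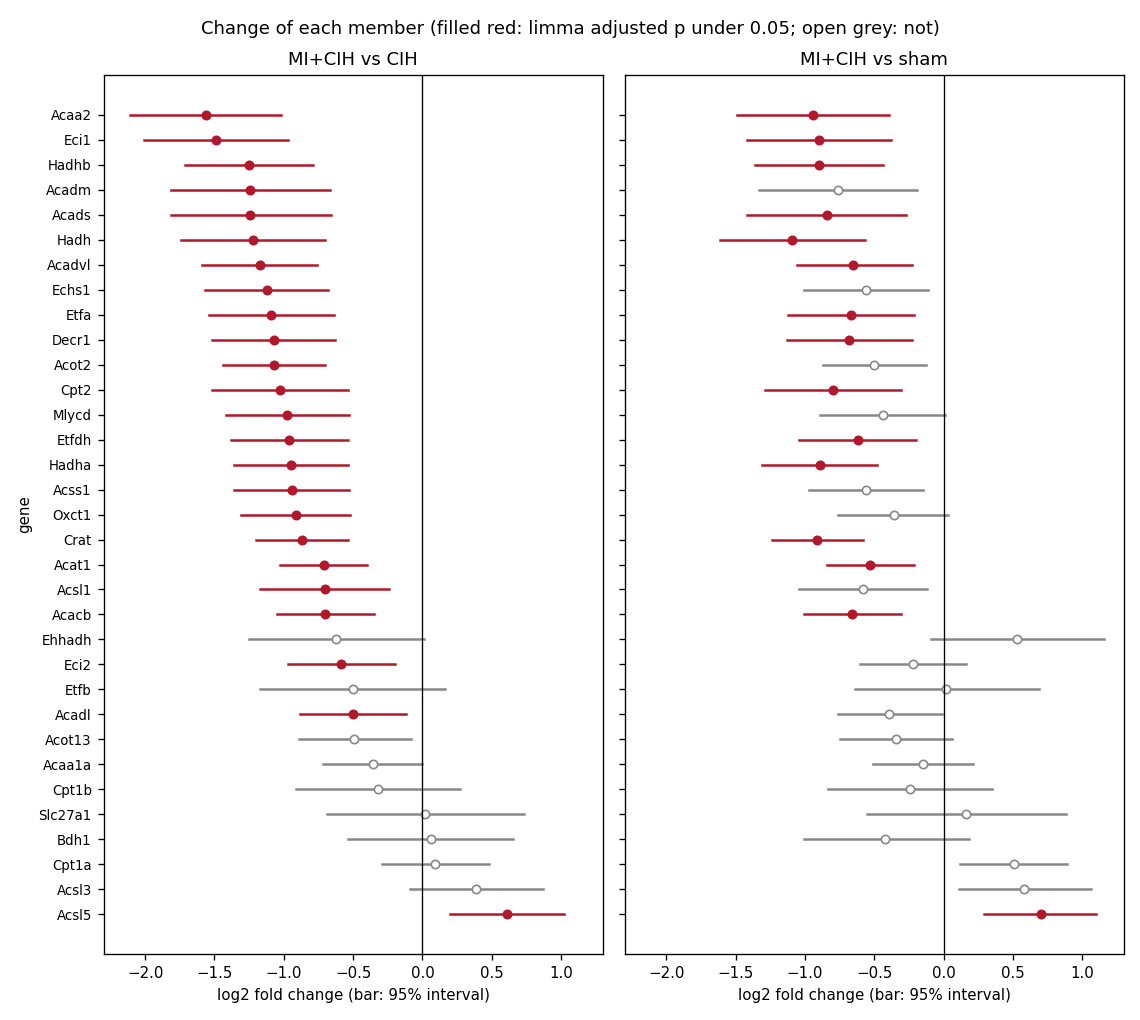
Change of each of the 33 genes in log2(FPKM + 0.5), with 95% intervals, in MI+CIH against CIH (left) and against sham (right), ordered by the left panel; filled red points passed the limma test and open grey points did not. Acaa2 at -1.56 and Acsl5 at 0.61 are the ends of the left panel, in which 24 points are filled, against 15 in the right panel.

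Against sham, 14 of the 33 genes fell and 1 rose in MI+CIH, where 5.51% of all tested genes fell and 11.3% rose. The median change was -0.56, against 0.12 for all tested genes. All 3 MI+CIH libraries were below all sham libraries in 19 genes (12% of all tested genes) and above in 3 (Acsl3, Acsl5 and Cpt1a, 23.8%). By role the falls were 2 of 4 in the carnitine shuttle, 1 of 2 in malonyl-CoA control, 2 of 4 dehydrogenases, 4 of 5 from hydration to thiolysis, 2 of 3 for unsaturated fatty acids, 2 of 3 in electron transfer and 1 of 3 in ketone use. None fell among the 4 genes of activation and uptake, the 2 peroxisomal genes or the 3 thioesterase and acetate genes. The count of 15 moved when 1 library was left out. Leaving out sham 1 gave 3, leaving out sham 2 gave 4, and leaving out MI+CIH 3 gave 5. Leaving out either MI+CIH 1 or sham 3 gave 7, and leaving out MI+CIH 2 gave 19. The median change moved less, to -0.52 without sham 1, -0.56 without sham 2, -0.59 without sham 3 and -0.46 without MI+CIH 1 or MI+CIH 3. Without MI+CIH 2 it was -0.66. Shares of all tested genes called in these fits are not given here, and the cause of the moves was not tested. Falls of Etfdh, Etfa, Acads, Acadvl and Decr1 against sham did not pass under 15, 14, 14, 12 and 12 of the 21 alternatives, and those of Hadh, Hadhb and Hadha under 2, 3 and 3. Cardiomyocyte markers fell in 5 of 14 cases here (median -0.80), fibroblast markers rose in 6 of 8, macrophage markers in 5 of 7, fat cell markers in 5 of 9, airway and lung markers in 4 of 6 and skeletal muscle markers in 2 of 10. Erythroid markers fell in 6 of 7 cases, and no atrial or endothelial marker passed.

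CIH against sham asks what hypoxia did to the uninjured heart. No gene of the 33 passed by limma, where 0.00645% of all tested genes did, and 9 had an unadjusted p under 0.05, all higher in CIH, where 11.8% of all tested genes had such a p. The median change was 0.35, against -0.07 for all tested genes, and 31 of 33 lay above 0. In 16 genes all CIH libraries were above all sham libraries, against 5.67% of all tested genes, and in none were all below (11.8%). The smallest p belonged to Ehhadh, Acot2 (0.57, limma adjusted p = 0.284) and Oxct1 (0.55, 0.316). Crat and Bdh1 were the members below 0, at -0.04 and -0.47. No cell marker of the 9 marker lists passed in this comparison, and the median change of the cardiomyocyte markers was 0.22. Lower in CIH were 7 of 7 atrial markers (median -1.48), 7 of 7 erythroid markers (-1.27), 6 of 9 fat cell markers (-1.05) and 6 of 6 airway and lung markers (-0.86). The medians were -0.03 for skeletal muscle, 0.26 for fibroblast, 0.11 for macrophage and 0.04 for endothelial markers. Their part in the values of the 33 genes was not tested.

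MI against sham asks what infarction did without hypoxia. No gene of the 33 passed by limma, where 1.96% of all tested genes did, and at an unadjusted p under 0.05 there were 5 lower (Crat, Acacb, Hadha, Hadh and Acadl) and 1 higher (Acsl5), where 16.5% of all tested genes had such a p. The median change was -0.19, against 0.06 for all tested genes. In 12 genes all MI libraries were below all sham libraries, against 11.7% of all tested genes, and in Acsl5 and Oxct1 they were all above (19.8%). The smallest p belonged to Acsl5, Crat and Acacb (-0.41, limma adjusted p = 0.225). Fibroblast markers rose in 5 of 8 cases, macrophage markers in 1 of 7 and erythroid markers fell in 3 of 7, while no cardiomyocyte, fat cell, skeletal muscle, atrial, airway or endothelial marker passed. Among lists with none passing, medians were 1.31 for skeletal muscle, 1.15 for fat cell, -0.84 for atrial and -0.89 for airway and lung markers. They were -0.12 for cardiomyocyte and -0.01 for endothelial markers. Their part in the values of the 33 genes was not tested.

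MI+CIH against MI asks what hypoxia did to the infarcted heart. No gene of the 33 passed by limma, where 0.0903% of all tested genes fell and 0.239% rose (0.329% in all). At an unadjusted p under 0.05 there were 12 lower and 1 higher (Cpt1a), where 18.9% of all tested genes had such a p. The median change was -0.35, against 0.05 for all tested genes. In 7 genes, Crat, Acadvl, Hadhb, Echs1, Acaa2, Oxct1 and Acat1, all MI+CIH libraries were below all MI libraries (9.19% of all tested genes), and in Slc27a1 and Cpt1a all were above (14.6%). The smallest p belonged to Hadhb, Oxct1 and Acaa2. MI+CIH 2 was the nearest of the 3 to MI in these genes, so leaving it out widens the difference by itself. Without it 13 of the 33 fell, among them Acaa2 (-1.13, limma adjusted p = 0.00936), and without MI+CIH 1 the count was 0. With MI+CIH 2 left out the median change was -0.47, against 0.06 for all tested genes. The share of all tested genes called in that fit is not given here. Cardiomyocyte markers had a median change of -0.63 with none passing, and of all cell markers 1 airway and lung marker rose (3 after median-of-ratios scaling). Above 0 were 6 of 6 airway and lung (median 4.28), 7 of 7 atrial (0.82), 9 of 9 fat cell (0.72) and 7 of 7 macrophage markers (0.40). The medians were 0.82 for skeletal muscle, 0.51 for fibroblast, 0.14 for endothelial and -0.30 for erythroid markers. The part of these markers in the values of the 33 genes was not tested.

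Whether the change under hypoxia differed between hearts with and without infarction was tested as an interaction, the MI+CIH minus MI difference less the CIH minus sham difference. No gene of the 33 passed by limma, where 0.00645% of all tested genes were negative and 0.071% positive calls (0.0774% in all), and 16 had an unadjusted p under 0.05, all negative, where 21.2% of all tested genes had such a p. The median interaction was -0.65, against 0.13 for all tested genes. The smallest p belonged to Oxct1 (-1.16, SE 0.26, limma adjusted p = 0.0705), Echs1 (-1.19, 0.0736) and Hadhb (-1.20, 0.0761). In 6 genes, Acadvl, Hadhb, Echs1, Acaa2, Oxct1 and Acat1, all MI+CIH libraries were below all MI libraries while all CIH libraries were above all sham libraries, against 1.18% of all tested genes. These 6 and Crat had their 3 MI+CIH libraries below the other 9, against 3.52% of all tested genes. Cardiomyocyte markers had a median interaction of -0.82, with 12 of 14 below 0. Medians were 5.09 for airway and lung, 2.15 for atrial, 2.12 for fat cell and 1.40 for erythroid markers. They were 0.85 for skeletal muscle, 0.44 for macrophage, 0.37 for fibroblast and 0.10 for endothelial markers. No cell marker passed in the interaction, and their part in the values of the 33 genes was not tested. Without MI+CIH 2 the interaction passed for 11 of the 33, all negative, and without MI+CIH 1 for 0. With MI+CIH 2 left out the median interaction was -0.81, against 0.13 for all tested genes. The share of all tested genes called in that fit is not given here.

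Other enzymes of the route were read from a second list of 38 genes, of which 37 were tested. Against CIH 12 fell and 5 rose in MI+CIH, with a median change of -0.31, where 8.26% of all tested genes fell and 19.9% rose. Against sham 8 fell and 3 rose (median -0.25), where 5.51% of all tested genes fell and 11.3% rose. After median-of-ratios scaling 19 fell and 5 rose against CIH, and 15 fell and 3 rose against sham, where 9.54% of all tested genes fell and 8.44% rose. Among those that fell against CIH were Slc25a20, the carrier that takes carnitine esters across the inner membrane (-1.06, limma adjusted p = 0.00388), Ech1, an isomerase of dienoyl-CoA (-1.32, 0.00535), and Ivd and Gcdh, acyl-CoA dehydrogenases of amino acid breakdown (-1.25, 0.00147, and -1.06, 0.00257). Amacr, Acsl6 and Phyh also fell (-1.07, -1.01 and -0.96), as did Acad8, Acad9, Acad11, Acsf3 and Acot7 by smaller amounts. Slc25a20 averaged 13.2 ± 4.29 FPKM in MI+CIH, 27.3 ± 3.39 in CIH, 18.1 ± 1.59 in MI and 19.2 ± 0.386 in sham (SD, n = 3 each). Among those that rose against CIH were Acaca, the cytosolic enzyme that makes malonyl-CoA for fatty acid synthesis (1.74, limma adjusted p = 0.0120), Acss3 (1.35, 0.00682), Abcd2, a peroxisomal carrier (1.20, 0.00908), Cpt1c, the brain form of the outer transferase (0.85, 0.00516), and Acsl4 (0.73, 0.0168). Acaca averaged 5.97 ± 3.06 FPKM in MI+CIH, 1.32 ± 0.207 in CIH, 7.56 ± 3.16 in MI and 3.85 ± 2.25 in sham, where sham 2 held the highest value of 6.39. In each group the library with the highest Acaca also had the highest summed FPKM of fat cell markers: MI+CIH 2 (9.5 and 1308 FPKM), CIH 2 (1.55 and 284), MI 1 (10.4 and 777) and sham 2 (6.39 and 459). The part of fat cell RNA in the values of Acaca was not tested. None of the 37 passed in MI against sham, CIH against sham or MI+CIH against MI; the smallest p there belonged to Acsf2 (-0.55, limma adjusted p = 0.0761) and Acot9 (0.60, 0.0899), to Acot11 (-0.40, 0.288) and Acad9 (0.35, 0.328), and to Ivd (-0.70, 0.0656) and Amacr (-0.67, 0.0843). In the interaction none passed, with Ivd (-1.07, 0.0692) and Amacr (-0.98, 0.0792) smallest. After median-of-ratios scaling Ivd passed as a fall in MI+CIH against MI (-0.77, limma adjusted p = 0.0491) and in the interaction (-1.21, 0.0433).

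Of other ketone genes, 7 tested of 10 listed, 2 fell and 2 rose against CIH, where 8.26% of all tested genes fell and 19.9% rose. Against sham 1 fell and 2 rose, where 5.51% fell and 11.3% rose. Slc16a1, a transporter of lactate and ketone bodies, averaged 19.6 ± 6.32 FPKM in MI+CIH, 31.3 ± 5.72 in CIH, 40.9 ± 5.74 in MI and 33.6 ± 2.84 in sham (SD, n = 3 each). It fell against CIH (-0.70, limma adjusted p = 0.0365) and sham (-0.81, 0.0295), with a change of -1.09 against MI (0.0581). Aacs, a cytosolic synthetase that uses acetoacetate for lipid, rose against CIH (1.53, 0.0110), and Bdh2 rose against CIH (0.88, 0.00760) and sham (0.71, 0.0285) at levels under 1 FPKM. In MI against sham none passed, the smallest p being those of Bdh2 (0.44, limma adjusted p = 0.279) and Slc16a1 (0.27, 0.587). None passed in CIH against sham, in MI+CIH against MI or in the interaction, where the change of Slc16a1 was -0.97 (0.119).

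Among 29 regulators of the route 9 fell and 6 rose against CIH, where 8.26% of all tested genes fell and 19.9% rose, so the share that rose was near that of all tested genes. Against sham 8 fell and 1 rose, where 5.51% fell and 11.3% rose. After median-of-ratios scaling 10 fell and 3 rose against CIH, and 10 fell and 0 rose against sham. Ppara, the nuclear receptor that senses fatty acids and turns on this route, stood at 4.03, 5.73 and 4.36 FPKM in MI+CIH, 9.90, 6.82 and 9.38 in CIH, 8.36, 9.31 and 7.08 in MI, and 9.19, 8.27 and 11.2 in sham. Its MI+CIH libraries were below the other 9, and it fell against CIH (-0.82, limma adjusted p = 0.00805) and sham (-0.95, 0.00760). Perm1, a muscle regulator of mitochondrial genes, averaged 26.4 ± 8.33 FPKM in MI+CIH, 61.2 ± 5.69 in CIH, 57.7 ± 6.39 in MI and 64.5 ± 8.37 in sham (SD, n = 3 each), and fell against CIH (-1.24, limma adjusted p = 0.00307) and sham (-1.32, 0.00488). Also falling in both were the retinoid receptor gene Rxrg, the estrogen-related receptor genes Esrrb and Esrrg, the AMP kinase subunit gene Prkaa2 and the mitochondrial deacetylase gene Sirt3. Esrra (-1.18, 0.00661) and Prkag1 fell against CIH, and the coactivator gene Ppargc1b (-1.03, 0.0148) fell against sham. Among those that rose against CIH were Ppard, Pparg, Nrip1, Nr2f2 and Prkag2, by 0.45 to 0.84, and Nrip1, a corepressor, also rose against sham (0.57, 0.0282). After median-of-ratios scaling Nrip1, Nr2f2 and Prkag2 still passed against CIH, while Ppard (0.25, limma adjusted p = 0.296) and Pparg (0.33, 0.199) did not. Nrip1 then did not pass against sham (0.42, 0.0684).

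Ppargc1a, the coactivator PGC-1alpha, had a pattern of its own. It stood at 16.6, 17.6 and 14.4 FPKM in MI+CIH, 23.1, 17.2 and 17.2 in CIH, 33.1, 45.7 and 31.9 in MI, and 18.6, 19.2 and 24.3 in sham. All MI libraries were above the other 9. Ppargc1a rose in MI against sham (0.81, limma adjusted p = 0.0446) and fell in MI+CIH against MI (-1.15, 0.0490), the only one of the 29 regulators to pass in either. After median-of-ratios scaling its change in MI against sham did not pass (0.74, limma adjusted p = 0.0766), Prkab1, a subunit of AMP kinase, passed as a fall (-0.61, 0.0347), and the fall of Ppargc1a against MI passed (-1.22, 0.0415). In CIH against sham none passed, and the change of Ppard was -0.52 (0.258). In the interaction none passed, with Ppargc1a (-1.04, 0.0736) and Nr2f2 (1.04, 0.0886) smallest.

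Other target genes of PPAR alpha, 14 tested of 16 listed, moved both ways. Against sham 6 rose and 0 fell in MI+CIH (1 fell after median-of-ratios scaling), with a median change of 0.30, where 11.3% of all tested genes rose and 5.51% fell. Against CIH 2 rose and 4 fell (median -0.22), or 2 and 6 after that scaling, where 19.9% of all tested genes rose and 8.26% fell before it. Pdk4, the kinase that restrains glucose oxidation, stood at 258, 337 and 225 FPKM in MI+CIH, 402, 289 and 221 in CIH, 283, 268 and 235 in MI, and 84.7, 111 and 20.2 in sham. All 9 treated libraries were above all sham libraries, and Pdk4 rose in MI+CIH against sham (2.22, limma adjusted p = 0.0165), with changes of 2.17 in MI (0.0585) and 2.34 in CIH (0.187). Angptl4, a secreted inhibitor of lipoprotein lipase, averaged 23.2 ± 2.77 FPKM in MI+CIH, 13.9 ± 8.72 in CIH, 19.1 ± 7.10 in MI and 2.65 ± 2.13 in sham (SD, n = 3 each), and rose in MI+CIH (3.16, limma adjusted p = 0.00515) and MI (2.82, 0.0260) against sham. Ucp2, Vnn1 and Plin2 also rose in MI+CIH against sham (0.86, 1.37 and 0.78). Against CIH the fatty acid carriers Fabp3 (-0.89, limma adjusted p = 0.0180) and Cd36 (-0.72, 0.0165), the lipid droplet gene Plin5 (-0.99, 0.0104) and Slc25a20 fell, and Ucp2 (1.26, 0.00191) and Vnn1 (1.45, 0.0123) rose. None passed in CIH against sham or in MI+CIH against MI, where the smallest p were those of Pdk4 and Angptl4 (2.29, 0.199) and of Plin2 (0.62, 0.0656) and Ucp2 (0.59, 0.131). In the interaction none passed, with Ucp2 (0.99, 0.0823) and Slc25a20 (-0.98, 0.0894) smallest. Slc25a20 also stands in the second enzyme list.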

How the data were processed

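The authors deposited 1 table of FPKM values for 26781 genes in 12 libraries. The unit was read from the values: for 22788 of 25404 genes with an exon length (89.7%) they were whole multiples, within 0.1 reads, of the FPKM of 1 read in all 12 libraries, with GENCODE M21 exon lengths on GRCm38, and this step gave each library's total. Read counts recovered this way were used for depth only. Per the submitters' processing notes HISAT, featureCounts 1.5.0-p3, DESeq 1.8.3 and mm10 were used, with no roles given; the annotation, any filter and the strand setting are not given in the sources used here. Columns were matched to samples by the sample descriptions.

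Genes of at least 0.5 FPKM in at least 3 libraries (15503) were fitted as log2(FPKM + 0.5) with limma 3.58.1 (trend and robust, statmod 1.5.0, R 4.3.3), with 1 mean for each group and no covariates over the 12 libraries. Benjamini-Hochberg adjustment ran over all tested genes of a comparison, with calls at 0.05. Folds on this scale understate the change of low genes. The fit was tested on simulated data with 200 changed genes. The replicate numbers showed no clear pairing of the samples: same-numbered libraries of different groups deviated together with r of -0.175 to 0.128, above 0.1 in 3 of 18 pairs. For different-numbered libraries r was -0.16 to 0.183, above 0.1 in 2 of 36 pairs. With 3 libraries a group such values cannot exclude a pairing. Alternatives were leaving out each library, leaving out sham 2 and MI+CIH 3 together, median-of-ratios scaling, pseudocounts of 0.1 and 1, dropping the filter or asking for a mean FPKM of 1, a block for the replicate number, a fit on the compared groups alone, and limma without trend and robust steps.

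The 33 members and all lists were chosen with earlier results of these data known, so no test is made over a list, and shares of all tested genes are given beside the main counts. Library values are given for members that passed in any comparison and for Cpt1b, Acadvl, Acadm, Hadha, Oxct1 and Bdh1, the 3 smallest p where fewer than 3 passed, and ranges for the rest. From further lists only genes that passed are named, or the 2 smallest p where none did, and some genes enter the counts without being named.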

Additional observations from a re-analysis of the deposited data

How the results depend on the processing

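Under the 21 alternatives no called change of the 33 genes reversed its direction. The count of 24 for MI+CIH against CIH was 12 in a fit of only the groups compared, with all 12 among the 24, 26 after median-of-ratios scaling, and 20 to 24 when 1 library was left out. Of the 24 genes 12 passed under every alternative (Acot2, Eci1, Acaa2, Acadvl, Hadhb, Crat, Echs1, Etfa, Decr1, Hadh, Acss1 and Cpt2). The count of 15 against sham was less steady: 9 with no filter on low values, 2 in a fit of only the groups compared, 1 without both sham 2 and MI+CIH 3, 20 after scaling, and 3 to 19 when 1 library was left out. In MI against sham 0 became 5 in a fit of only the groups compared and 0 to 1 (Acsl5, without CIH 1 or without sham 3) when 1 library was left out. In MI+CIH against MI leaving out 1 library gave 0 to 13 and in the interaction 0 to 11, both highest without MI+CIH 2, and the interaction count was 1 (Echs1) after scaling. In CIH against sham every alternative gave 0. In the interaction 0.394% of all tested genes were positive and 0.608% negative calls after scaling. For the alternatives other than scaling, the number of all tested genes called is not given here. These counts therefore do not show whether the members moved apart from all tested genes. The cause of these moves was not tested. With the replicate number as a block, although the numbers showed no clear pairing of the samples, the counts were 23 against CIH, 10 against sham and 0 in the other comparisons. Scaling shifted the median of all tested genes by -0.17 in MI+CIH against CIH, -0.12 against sham and -0.11 in the interaction, and turned 3088 genes that rose and 1280 that fell against CIH into 1969 and 2238, and 1749 and 854 against sham into 1305 and 1476.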
